A study of Mus musculus with 21 samples.

Results

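The 9 genes described here regulate the G1 phase of the cell cycle: the cyclin-dependent kinase (CDK) inhibitors Cdkn1a, Cdkn1b, Cdkn2c and Cdkn2d, the D-type cyclins Ccnd1, Ccnd2 and Ccnd3, and the kinases Cdk4 and Cdk6. They were listed by name as regulators of this phase. All 9 were found, with 1 gene ID each, among 54446 gene IDs in the deposited count table. On mm10, in the GENCODE M21 annotation, they lie at chr17:29090976-29100727 (Cdkn1a), chr6:134920401-134925513 (Cdkn1b), chr4:109660876-109667189 (Cdkn2c), chr9:21288410-21291407 (Cdkn2d), chr7:144929931-144939925 (Ccnd1), chr6:127125162-127152193 (Ccnd2), chr17:47505051-47599691 (Ccnd3), chr10:127063534-127067920 (Cdk4) and chr5:3341485-3531008 (Cdk6), and all are protein-coding. RNA had been sequenced from 3 populations of mouse bone marrow cells sorted by surface markers: long-term haematopoietic stem cells (LT-HSC) and the multipotent progenitors MPP2 and MPP3. The mice were C57BL/6, aged 12 weeks, and either knockout (KO) or wild type (WT) for Phf6, which encodes a chromatin-associated plant homeodomain finger protein. The KO groups were MPP3 with 4 libraries, MPP2 with 4 and LT-HSC with 3, and the WT groups were MPP3 with 4, MPP2 with 4 and LT-HSC with 2. The sources used here do not give the allele of the knockout or whether it acted in blood cells alone. Each library was made from between 100 and 200 sorted cells, and the questions are how the 9 genes differed between KO and WT and between the populations.

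D-type cyclins bind and activate Cdk4 and Cdk6, and the active complexes phosphorylate the retinoblastoma protein, which releases E2F transcription factors and lets a cell pass from G1 into DNA replication. The INK4 inhibitors, to which Cdkn2c (Ink4c) and Cdkn2d (Ink4d) belong, bind Cdk4 and Cdk6 themselves, whereas the CIP/KIP inhibitors Cdkn1a (Cip1) and Cdkn1b (Kip1) bind assembled complexes and block those of Cdk2. Stem cells of the bone marrow divide rarely and progenitors divide often, and in human stem cells a low level of CDK6 is known to lengthen the exit from quiescence.

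Total counts ran from 18892723 to 31611366 per library, with a median of 26158938. Phf6 gave 2.45 to 13.3 CPM (counts scaled by the TMM-adjusted library size) in the 11 KO libraries, against 54.4 to 210 CPM in the 10 WT libraries, and no KO library reached the lowest WT value. Group means of the gate markers followed the sort labels. Cd48, which the gate for both progenitors requires, averaged 346 to 504 CPM in the 4 MPP groups. In the 2 LT-HSC groups it averaged 9.62 to 10.96 CPM. Slamf1 (CD150) averaged 0.342 CPM in KO MPP3 and 0.931 CPM in WT MPP3, against 48.1 to 59.3 CPM in the other groups. Flt3, for which the cells were not stained, averaged 753 CPM in KO MPP3 and 1091 CPM in WT MPP3. Some libraries stood apart. The summed level of 7 LT-HSC marker genes was 0.0653% of counts in KO MPP3 2. It was 0.0126% to 0.0169% in the other KO MPP3 libraries and 0.0712% to 0.1032% in the LT-HSC libraries. What this reflects was not tested. Immunoglobulin genes took 45.8% of the counts of KO MPP2 1 and 25.8% of KO MPP3 1, ribosomal RNA took 10.3% of KO MPP3 2, and KO LT-HSC 3 had 20297 genes with a count, against 23786 to 24827 in the other LT-HSC libraries. Library titles also carry numbers, 52 to 64 for the libraries numbered 1 and 2 and 162 to 212 for the others. No WT LT-HSC library has a title number in the higher range, and what the number records is not stated. In bulk libraries such as these, a change in how many cells express a gene and a change in RNA per cell cannot be told apart.

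Promoter windows from RefSeq on GRCm38.p6, each 250 bases before to 50 after an annotated start, were matched for 7 of the 9 genes. Ccnd1 and Ccnd2 had no entry. The windows shown are those of the kinases Cdk6 and Cdk4 and 1 of the 2 windows of the INK4 gene Cdkn2c, chosen because Cdk6 and Cdkn2c carry the differences between populations and Cdk4 is the kinase that Cdk6 is set against. Letters searched on both strands were the GC box GGGCGG, the E2F letters TTTCGCG with their variant form TTTGGCG, the E box CACGTG, the RUNX letters TGTGGT, the GATA letters AGATAA, the ETS letters CCGGAA, the CCAAT box by its name and the TATA box TATAAA. Capitals mark the matches.
Cdk6, chr5:3343643-3343942, plus strand: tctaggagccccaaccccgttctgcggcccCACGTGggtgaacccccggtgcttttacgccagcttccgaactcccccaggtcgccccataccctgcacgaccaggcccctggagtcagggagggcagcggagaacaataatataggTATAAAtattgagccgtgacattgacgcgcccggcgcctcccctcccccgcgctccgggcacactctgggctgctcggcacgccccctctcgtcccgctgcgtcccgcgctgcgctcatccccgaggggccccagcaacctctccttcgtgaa
Cdk4, chr10:127063285-127063584, plus strand: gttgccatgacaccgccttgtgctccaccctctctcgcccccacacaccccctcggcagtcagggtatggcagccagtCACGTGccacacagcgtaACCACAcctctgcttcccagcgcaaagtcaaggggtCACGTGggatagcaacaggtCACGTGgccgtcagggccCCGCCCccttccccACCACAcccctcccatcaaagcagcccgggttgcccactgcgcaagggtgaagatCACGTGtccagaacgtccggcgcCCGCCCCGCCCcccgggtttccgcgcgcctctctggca
Cdkn2c, chr4:109665323-109665622, minus strand: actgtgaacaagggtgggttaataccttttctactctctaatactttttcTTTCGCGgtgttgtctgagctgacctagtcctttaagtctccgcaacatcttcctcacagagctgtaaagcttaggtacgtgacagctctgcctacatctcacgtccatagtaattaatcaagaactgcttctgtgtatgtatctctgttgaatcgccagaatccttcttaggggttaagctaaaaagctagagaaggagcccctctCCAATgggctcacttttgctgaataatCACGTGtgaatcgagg
The Cdk4 window held 4 E box matches, 3 GC boxes, of which 2 overlap in 1 run of capitals, and 2 RUNX matches. The Cdk6 window held 1 match to the E box letters, 1 to the TATA box letters and no GC box. Matches were counted anywhere in a window, so they do not show an element at its working distance from the start. Among 32851 promoter windows of this length, 7.15% held CACGTG, 35.7% GGGCGG, 13.6% TATAAA and 16.8% TGTGGT. The Cdkn2c window held TTTCGCG once, as did 0.849% of all windows, beside 1 E box and 1 CCAAT box. A second Cdkn2c window, at chr4:109666707-109667006, held 4 GC boxes and no E2F match.

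Levels between genes were compared per kilobase of exon (RPKM, computed from the counts and GENCODE M21 exons). By this measure Cdk4 was the most abundant of the 9 in every group, with mean levels of 154 to 227 RPKM. Cdkn2d, Cdk6 and Ccnd2 came next, with group means of 36.1 to 77.4, 18.7 to 61.2 and 44.4 to 71.6 RPKM. Their order changed with the population, so these 3 genes have no fixed rank. Ranks per length depend on the exon-union lengths, 3249 bases for Cdk4 and 13989 for Cdk6, and the isoforms expressed were not examined. In CPM, which leaves length out, Cdk6 averaged 745 to 856 and Cdk4 716 to 739 in the MPP groups. Ccnd3 averaged 13.6 to 20.2 RPKM and Cdkn2c 5.15 to 13.4 RPKM. Cdkn1b (4.96 to 7.09 RPKM), Cdkn1a (1.13 to 6.87 RPKM) and Ccnd1 (1.62 to 2.97 RPKM) had the 3 lowest means in every group. Cdkn2c and Cdkn1b could not be ranked in KO LT-HSC, where they averaged 5.15 ± 3.12 and 5.06 ± 3.36 RPKM (SD, n = 3), nor could Cdk6 and Ccnd3, at 18.66 ± 7.46 and 18.65 ± 4.14 RPKM. Every gene had counts in every library, from 26 counts of Ccnd1 in WT MPP2 1 upwards. All 9 passed the filter on low counts and were tested among 21100 genes.

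**Figure D1:**
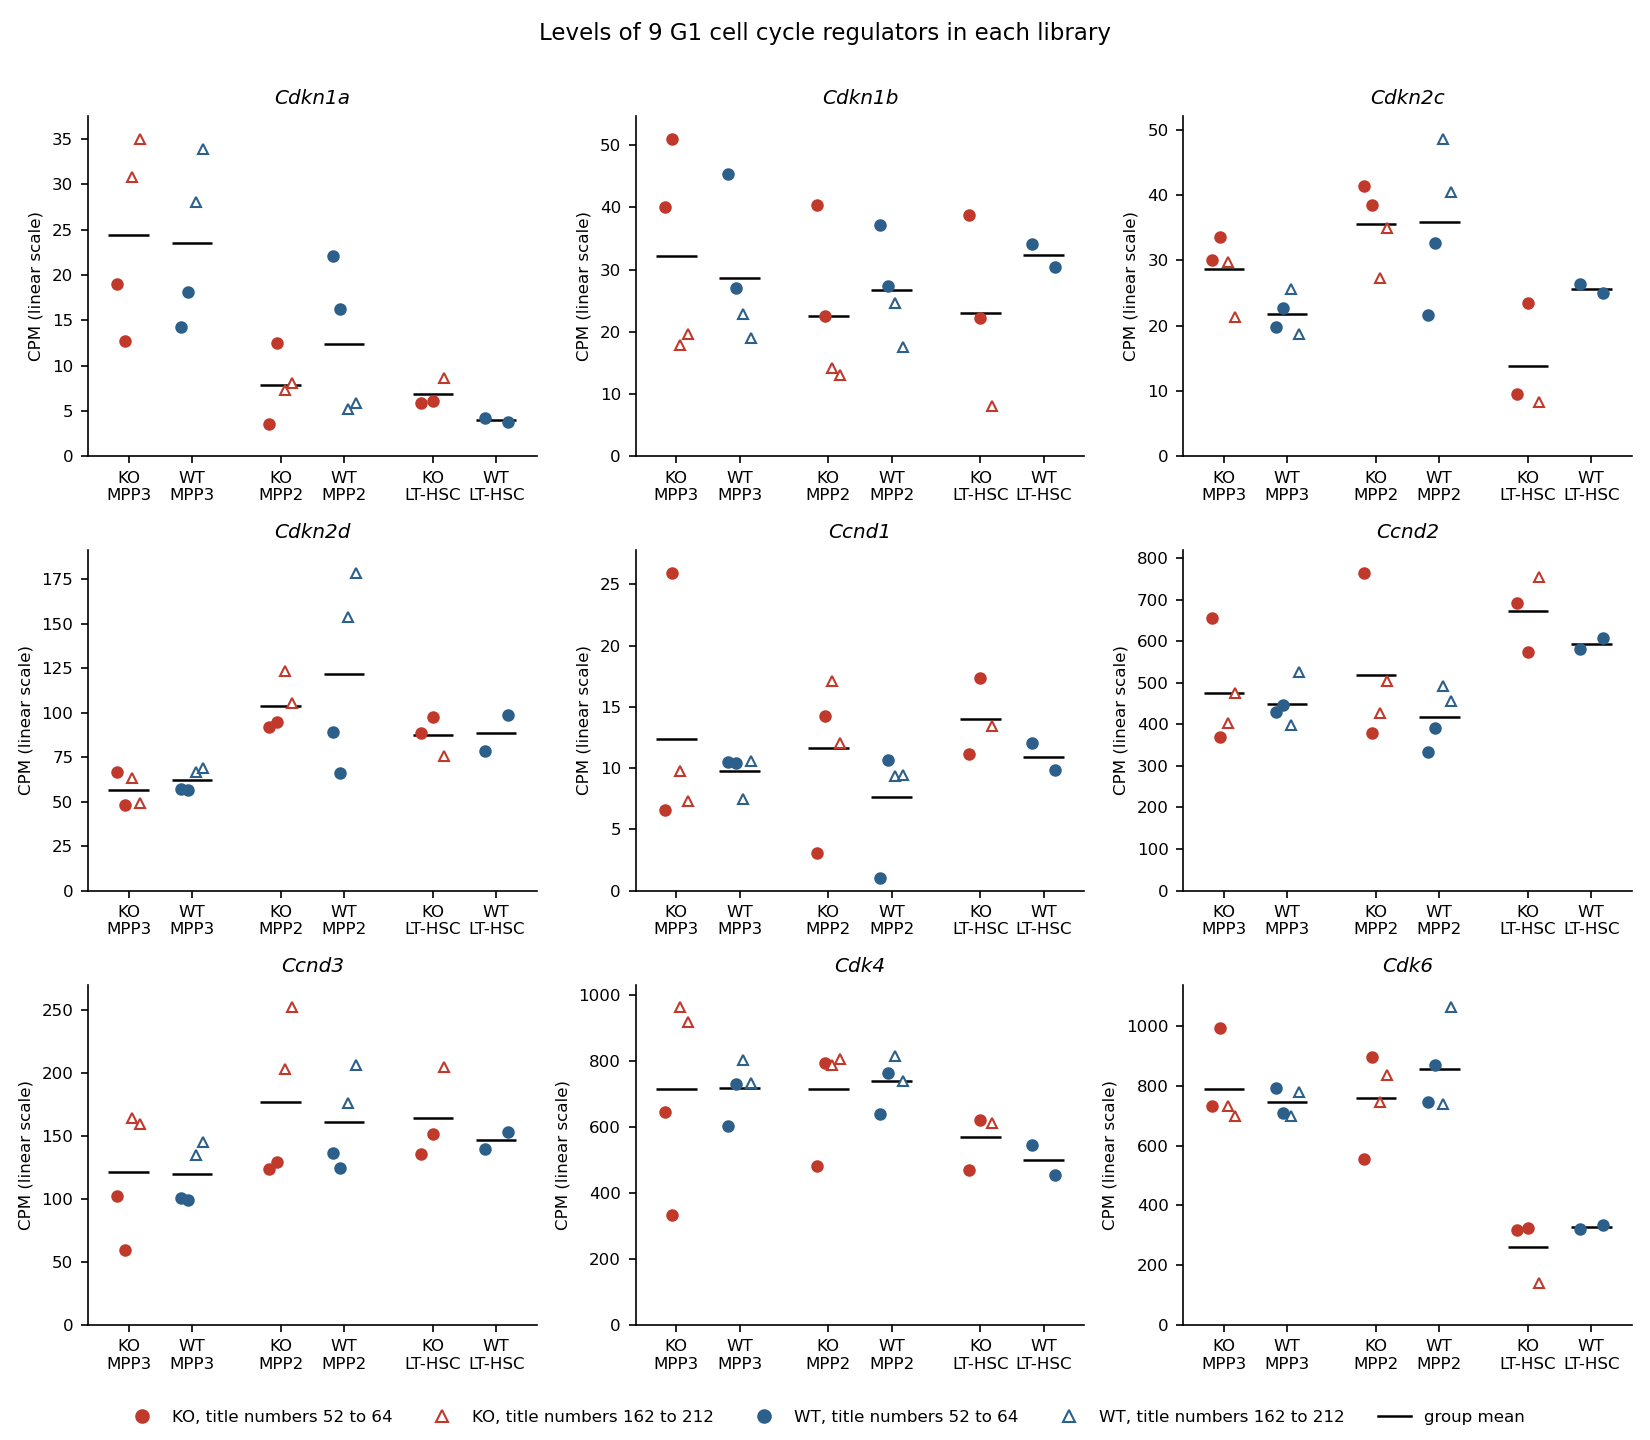
Level of each of the 9 genes in CPM (linear axis from 0) in every library, by population and genotype, with group means as bars and symbols by the range of the title number. Cdk6 lies between 556 and 1066 CPM in all MPP libraries and between 140.5 and 332.7 CPM in all LT-HSC libraries, in both genotypes.

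Loss of Phf6 came with no called change in any of the 9 genes. The ranges of KO and WT libraries overlapped for all 9 genes in MPP3 and MPP2 and for 7 of 9 in LT-HSC, where Cdkn1a and Cdkn2c were the exceptions. Over all genes tested, KO and WT libraries did not overlap for 2.69% in MPP3, 2.5% in MPP2 and 18.3% in LT-HSC. With edgeR's quasi-likelihood test adjusted by Benjamini-Hochberg over all genes, 0 of 9 passed 0.05 in MPP3, where 0.00948% of all genes were called, 0 of 9 in MPP2 (0.0142% called) and 0 of 9 in LT-HSC (0.00474% called). Adjusted p-values ran from 0.864 to 1. The median log2 difference of the 9 was 0.08 in MPP3, -0.04 in MPP2 and 0.16 in LT-HSC, against 0.0046, 0.0121 and 0.0035 over all genes tested. DESeq2 also called 0 in each population. At an unadjusted p under 0.05 there were 0 in MPP3, 0 in MPP2 and 1 in LT-HSC, against 5.62%, 6.72% and 2.43% of all genes.

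That gene was the INK4 inhibitor Cdkn2c. It had 9.63, 23.5 and 8.405 CPM in KO LT-HSC, against 26.4 and 25.0 CPM in WT LT-HSC. All 3 KO libraries lay below both WT libraries, 1 of them narrowly. The log2 difference was -0.89 (SE 0.38, 95% interval -1.68 to -0.11, unadjusted p = 0.0280, adjusted p = 1 in edgeR), so it failed the correction. The summed level of the 5 megakaryocyte-erythroid genes Gata1, Pf4, Itga2b, Klf1 and Vwf was 0.0558% to 0.115% of counts in KO LT-HSC, against 0.0272% to 0.0335% in WT LT-HSC. That of 6 granulocyte-monocyte and lymphoid genes (Mpo, Elane, Csf1r, Cebpa, Dntt, Flt3) was 0.001105% to 0.005385% in KO LT-HSC, against 0.00813% to 0.0111% in WT LT-HSC. WT LT-HSC 2 also held 0.509% of counts in 6 neutrophil genes, against 0.00166% in WT LT-HSC 1. The part of these in the Cdkn2c difference was not tested. In MPP3 the fitted difference of the same gene was positive, with 28.7 ± 5.19 CPM in KO and 21.7 ± 3.11 CPM in WT libraries (SD, n = 4 each), a log2 difference of 0.40 (95% interval -0.21 to 1.02, adjusted p = 1). The KO effect in MPP3 exceeded that in LT-HSC by 1.29 on the log2 scale (SE 0.48, unadjusted p = 0.0138), and this too failed the correction (adjusted p = 1). Over all genes, 0% were called in that test of the difference, 0% in MPP2 against LT-HSC and 0% in MPP3 against MPP2, and 0 of the 9 genes were called in each.

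For the other 8 genes the intervals show how large a KO effect these libraries leave possible. Cdk6 had log2 differences of 0.08 in MPP3 (95% interval -0.37 to 0.54), -0.17 in MPP2 (-0.63 to 0.28) and -0.33 in LT-HSC (-0.91 to 0.26). Cdk4, its fellow kinase, gave -0.0045 in MPP3 (-0.51 to 0.51), -0.04 in MPP2 (-0.55 to 0.47) and 0.19 in LT-HSC (-0.48 to 0.85). Ccnd2, the most abundant D cyclin, gave 0.08 in MPP3 (-0.36 to 0.52), 0.31 in MPP2 (-0.13 to 0.75) and 0.18 in LT-HSC (-0.39 to 0.75). For these 3 genes no interval reached 1 in either direction. The CIP/KIP inhibitor Cdkn1a was much less certain. In LT-HSC it had 5.86, 6.14 and 8.67 CPM in KO libraries, all above the 4.22 and 3.84 CPM of the WT libraries, and the log2 difference was 0.77 with an interval of -0.50 to 2.05. In MPP2 its log2 difference was -0.65 (-1.61 to 0.32), and in MPP3 0.05 (-0.91 to 1.01). Ccnd1 had the widest intervals, from -1.19 to 1.90 in LT-HSC. Cdkn1b, Cdkn2d and Ccnd3 had log2 differences between -0.49 and 0.17 in the 3 populations. Intervals of Cdkn1b were wide, at -1.70 to 0.73 in LT-HSC, -1.20 to 0.71 in MPP2 and -0.78 to 1.12 in MPP3. No interval of Cdkn2d or Ccnd3 reached 1 in either direction. In MPP2 the fitted KO difference had opposite signs in the title numbers 52 to 64 and 162 to 212 for Cdkn1a (-1.24 and 0.47), Cdkn2c (0.56 and -0.52), Cdkn2d (0.27 and -0.54), Ccnd2 (0.65 and -0.02), Ccnd3 (-0.04 and 0.25) and Cdk4 (-0.14 and 0.04). In MPP3 it did so for every member except Cdkn2c, among them Cdk4 (-0.45 and 0.29) and Ccnd3 (-0.31 and 0.21). None of these was called (adjusted p of 0.660 or above). In LT-HSC within 52 to 64, the one range with both genotypes, the KO difference of Cdkn2c was -0.63 and that of Cdkn1a 0.57 (adjusted p = 1 for both).

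**Figure D2:**
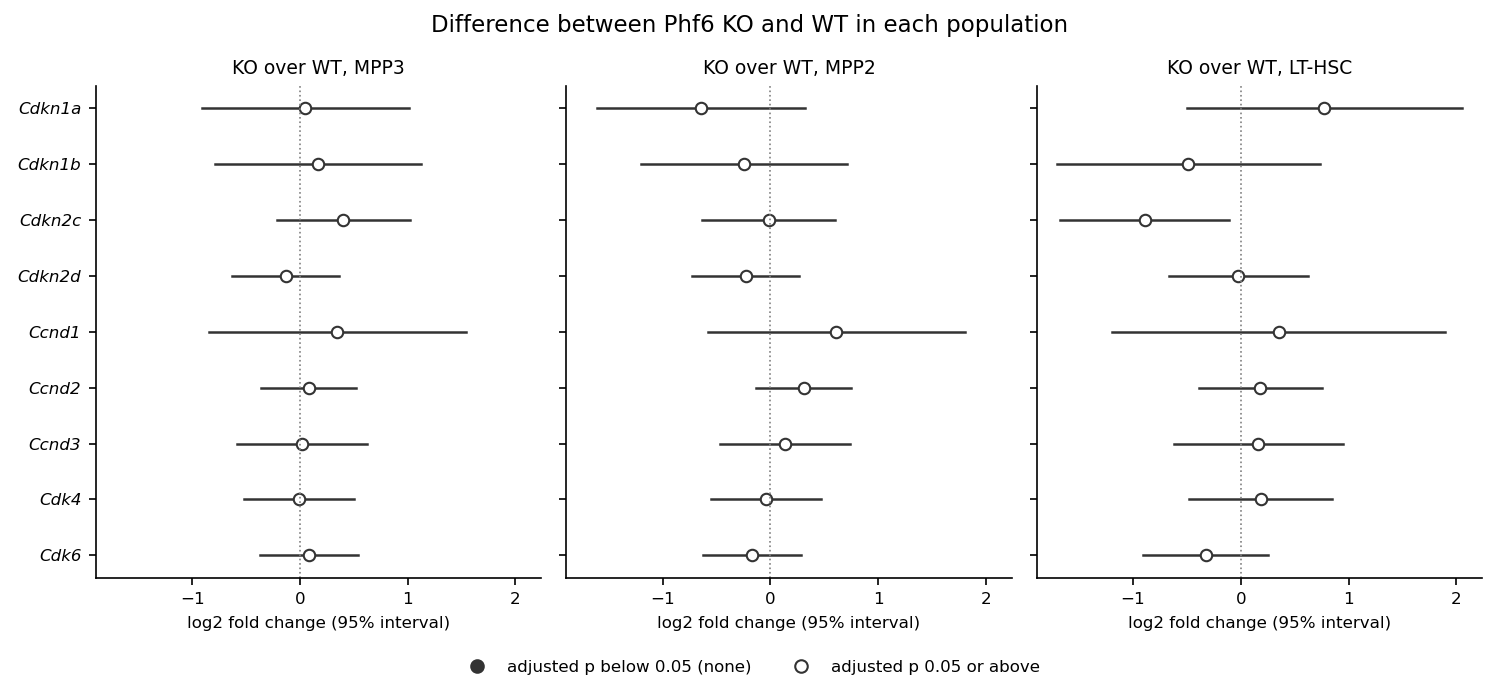
Log2 fold change of KO over WT (points) with 95% intervals (lines) for the 9 genes in MPP3, MPP2 and LT-HSC. Every point is open (adjusted p of 0.864 or above), and the interval of Cdkn2c in LT-HSC is the one that lies wholly on one side of 0.

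The populations differed in Cdk6. KO MPP3 libraries had 732, 993, 734 and 698.5 CPM and KO MPP2 libraries 556, 896, 745 and 837 CPM, against 317.5, 325 and 140.5 CPM in KO LT-HSC. WT MPP3 libraries had 792, 709, 700 and 780 CPM and WT MPP2 libraries 748, 872, 739 and 1066 CPM, against 322 and 333 CPM in WT LT-HSC. Every MPP library of either genotype lay above every LT-HSC library. The share of all genes separated in this way was not computed for any comparison of populations, here or for the members below. Cdk6 rose 3.02-fold in KO MPP3 over KO LT-HSC (log2 1.60, SE 0.25, adjusted p = 0.000916) and 2.91-fold in KO MPP2 (log2 1.54, SE 0.25, adjusted p = 0.002335). In WT mice it rose 2.28-fold in MPP3 (log2 1.19, SE 0.28, adjusted p = 0.0450) and 2.62-fold in MPP2 (log2 1.39, SE 0.28, adjusted p = 0.0328), all in edgeR. MPP3 and MPP2 had Cdk6 levels that overlapped in both genotypes, with log2 differences of 0.06 (95% interval -0.40 to 0.51) in KO and -0.20 (-0.66 to 0.25) in WT mice. Cdk6 was the 1 member called of 9 in KO MPP3 over LT-HSC, where 2.64% of all genes were called, and in WT MPP3 over LT-HSC (1.1% called) and WT MPP2 over LT-HSC (0.63% called). In KO MPP2 over LT-HSC 2 of 9 were called (1.81% of all genes), the other being Cdkn2c. The median log2 difference of the 9 ran from -0.18 in WT MPP3 to 0.46 in WT MPP2, against 0.0272 and 0.0 over all genes.

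Both KO calls for Cdk6 held when any 1 of the 21 libraries was left out (adjusted p of at most 0.01071), and within the title numbers 52 to 64 alone the log2 differences were 1.42 in KO MPP3 and 1.18 in KO MPP2 (adjusted p = 0.00540 and 0.0357). Within 162 to 212, where KO LT-HSC 3 is the one LT-HSC library, they were 2.35 in KO MPP3 and 2.49 in KO MPP2. KO LT-HSC 3 had the lowest Cdk6 level, and without it the lowest differences were reached, at 1.30 in KO MPP3 and 1.24 in KO MPP2. After removal of the 3 libraries with much immunoglobulin or ribosomal RNA they were 1.45 in KO MPP3 and 1.63 in KO MPP2 (adjusted p = 0.00492 and 0.00207). When the fit held KO MPP2 and KO LT-HSC alone, the KO MPP2 call was lost (adjusted p = 0.0816). The WT calls rest on 2 LT-HSC libraries. Within the lower title numbers they were 1.197 in MPP3 and 1.31 in MPP2 (adjusted p = 0.0242 and 0.0271), but without 1 WT LT-HSC library the adjusted p was 0.428 to 0.524 in MPP3 and 0.409 to 0.4195 in MPP2, and with the mouse as a block it was 0.0825 in MPP3 and 0.0783 in MPP2, with log2 differences of 1.16 and 1.35. The WT MPP2 call was also lost without WT MPP2 4 (0.0712), and the WT MPP3 call was kept in 8 of 21 single omissions.

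Among the inhibitors, Cdkn2c, which binds Cdk4 and Cdk6, rose in KO MPP2 over KO LT-HSC. KO MPP2 libraries had 41.45, 38.5, 27.25 and 34.9 CPM, against 9.63, 23.5 and 8.405 CPM in KO LT-HSC. The groups did not overlap, and the rise was 2.57-fold (log2 1.36, SE 0.33, adjusted p = 0.0400). In WT mice the same comparison gave 21.7, 32.6, 48.7 and 40.5 CPM in MPP2, against 26.4 and 25.0 CPM in LT-HSC. These groups overlapped and the log2 difference was 0.48 (95% interval -0.29 to 1.25, adjusted p = 0.6295). The KO rise exceeded the WT one by 0.88 on the log2 scale (95% interval -0.12 to 1.88, unadjusted p = 0.0819 in edgeR). This difference was not called, so the rise was not shown to differ between the genotypes. KO MPP3 had 30.1, 33.6, 29.8 and 21.4 CPM, which overlapped KO LT-HSC, with a log2 difference of 1.05 (SE 0.33, adjusted p = 0.102). DESeq2 called the KO MPP3 difference (log2 1.04, adjusted p = 0.0289). With the mouse as a block edgeR called it too (log2 1.23, adjusted p = 0.0442), and with the replicate number as a block it did not (adjusted p = 0.0685, or 0.0722 with KO LT-HSC 3 as number 4). WT MPP3, at 18.7 to 25.6 CPM, gave a log2 difference from WT LT-HSC of -0.24 (-0.99 to 0.51). The KO MPP2 call was kept by DESeq2 (adjusted p = 0.00268), with the replicate block (0.0263) and with the mouse as a block (0.0232). It was lost with only the groups compared (0.182) and without the filter on low counts (0.0599). Within the title numbers 52 to 64 the difference was 1.27 (adjusted p = 0.156). The call was also lost after removal of the 3 libraries with much immunoglobulin or ribosomal RNA (adjusted p = 0.0594). It was kept in 9 of 21 single omissions, with adjusted p-values of up to 0.195 when KO LT-HSC 1 was left out and 0.180 when KO LT-HSC 3 was. When KO LT-HSC 2, the highest of its group, was left out, KO MPP3 was called too (log2 1.67, adjusted p = 0.007235).

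Cdkn1a, which p53 induces, had the largest fitted differences of MPP3 from LT-HSC among the 9, without passing the adjusted threshold. KO MPP3 had 19.02, 12.75, 30.9 and 35.05 CPM, against 5.86, 6.14 and 8.67 CPM in KO LT-HSC. WT MPP3 had 14.3, 18.1, 28.0 and 33.9 CPM, against 4.22 and 3.84 CPM in WT LT-HSC. All 8 MPP3 libraries exceeded all 5 LT-HSC libraries. The log2 difference was 1.83 in KO mice (95% interval 0.73 to 2.92, adjusted p = 0.0744 in edgeR) and 2.55 in WT mice (1.202 to 3.89, adjusted p = 0.0658). DESeq2 called both (adjusted p = 0.00735 and 0.000695). Without the 3 libraries with much immunoglobulin or ribosomal RNA edgeR did so too (0.0320 and 0.0368). With the replicate number as a block edgeR called neither (0.1035 in KO and 0.1117 in WT mice). The mouse as a block (0.1671 and 0.1458) and a term for the title numbers (0.06755 and 0.08117) gave no call either. With only the groups compared, WT was called (0.01946) and KO was not (0.07864). Within the title numbers 52 to 64 neither was called (0.1257 in KO and 0.05361 in WT mice). MPP2 was uneven: KO MPP2 had 3.615, 12.5, 7.345 and 8.09 CPM and WT MPP2 22.05, 16.3, 5.22 and 5.92 CPM. The log2 difference of KO MPP3 from KO MPP2, which did not overlap, was 1.63 (adjusted p = 0.115), and that of WT MPP3 from WT MPP2, which overlapped, was 0.93 (adjusted p = 0.390).

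Cdkn2d, the INK4 inhibitor with the highest level per length, had its lowest group means in MPP3, where those of Cdkn1a were highest. KO MPP3 had 66.8, 47.9, 63.3 and 49.0 CPM, against 91.7, 94.5, 123 and 106 CPM in KO MPP2. WT MPP3 had 56.8, 56.4, 66.6 and 69.0 CPM, against 88.8, 66.0, 154 and 179 CPM in WT MPP2. KO groups did not overlap, and in WT mice 1 MPP2 library lay within the MPP3 range. The log2 difference of MPP3 from MPP2 was -0.87 in KO (95% interval -1.37 to -0.37, adjusted p = 0.0964) and -0.97 in WT mice (-1.47 to -0.47, adjusted p = 0.0528). Within the title numbers 52 to 64 it was -0.70 in KO and -0.45 in WT mice (adjusted p = 0.177 and 0.866), and within 162 to 212 it was -1.03 in KO and -1.29 in WT mice (0.0219 and 0.00443). With all libraries neither passed in edgeR. Both were called by DESeq2 (adjusted p = 0.0219 and 0.00672) and with a term for the title numbers (0.0406 and 0.0273). Neither was called with the mouse as a block (0.0617 and 0.0619) or with only the groups compared (0.142 and 0.141). The same held without the filter on low counts (0.167 and 0.0686). WT alone was called with the replicate block (0.0588 and 0.0392) and without the 3 libraries with much immunoglobulin or ribosomal RNA (0.289 and 0.0435). LT-HSC, with 88.5, 97.7 and 75.5 CPM in KO and 78.4 and 98.7 CPM in WT libraries, overlapped MPP2 and lay above all 8 MPP3 libraries. The log2 differences of MPP3 from LT-HSC were -0.62 in KO and -0.51 in WT mice (adjusted p = 0.243 and 0.668). No member was called between MPP3 and MPP2 in edgeR, where 0.886% of all genes were called in KO and 1.2% in WT mice. At an unadjusted p under 0.05 there were 2 of 9 in each, against 14.5% of all genes in KO and 13.5% in WT mice.

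Cdkn1b, whose protein restrains Cdk2 in resting cells, spanned 8.14 to 51.05 CPM over the 21 libraries, and all its groups overlapped. Its log2 differences between populations ran from -0.28 to 0.51, with standard errors of 0.46 to 0.55.

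Of the D cyclins, Ccnd2 had lower means in the progenitors without being called. It averaged 476 ± 127 CPM in KO MPP3 and 519 ± 172 CPM in KO MPP2 (SD, n = 4 each), against 673 ± 91.2 CPM in KO LT-HSC (n = 3). In WT mice it averaged 449 ± 54.5 CPM in MPP3 and 418 ± 69.5 CPM in MPP2 (n = 4 each), against 594 ± 17.2 CPM in LT-HSC (n = 2). WT progenitor libraries all lay below both WT LT-HSC libraries, and KO groups overlapped. No share over all genes was computed for this separation either. The 4 log2 differences ran from -0.51 to -0.38, with adjusted p-values of 0.289 to 0.730. The overlap in KO mice came through KO MPP2 1 (765 CPM) and KO MPP3 1 (655 CPM), the 2 libraries rich in immunoglobulin reads. Without these and KO MPP3 2, the KO MPP2 difference was -0.67 and called (adjusted p = 0.0266), and the KO MPP3 difference was -0.63 (adjusted p = 0.0698).

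Ccnd3 overlapped in every comparison of populations. Its log2 difference of KO MPP3 from KO LT-HSC was -0.44 (adjusted p = 0.5505). With the replicate number as a block it was -0.64 and called (adjusted p = 0.0430). With a term for the title numbers it was -0.61 and also called (adjusted p = 0.0466). It was not called with KO LT-HSC 3 as number 4 (adjusted p = 0.0678) or with the mouse as a block (0.0559). Without the 3 libraries with much immunoglobulin or ribosomal RNA it was -0.03 (adjusted p = 0.981). Ccnd1 overlapped throughout as well, and its log2 differences ran from -0.52 to 0.35. Counts of Ccnd1 are uncertain, since 23.4% of its exon bases overlap those of LTO1 on the other strand and the sources used here do not say whether counting used strand. Cdk4 shares 19.7% of its exon bases with Tspan31 in the same way, and Ccnd3 4.11% with Bysl.

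Cdk4 averaged 716 ± 291 CPM in KO MPP3 and 717 ± 158 CPM in KO MPP2, against 569 ± 84.6 CPM in KO LT-HSC. In WT mice it averaged 718 ± 83.1 CPM in MPP3 and 739 ± 73.8 CPM in MPP2, against 500 ± 64.8 CPM in LT-HSC. Its WT progenitor libraries all exceeded both WT LT-HSC libraries, and KO groups overlapped. As for Ccnd2, no share over all genes was computed for such separation. No difference was called: the log2 values were 0.33 in both KO comparisons and 0.52 and 0.56 in WT MPP3 and MPP2 (adjusted p = 0.461 to 0.694). The 2 lowest KO progenitor values, 334 CPM in KO MPP3 2 and 481 CPM in KO MPP2 1, came from 2 of the 3 libraries with much immunoglobulin or ribosomal RNA. Without those 3 the KO MPP3 difference was 0.72 and called (adjusted p = 0.0150).

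**Figure D3:**
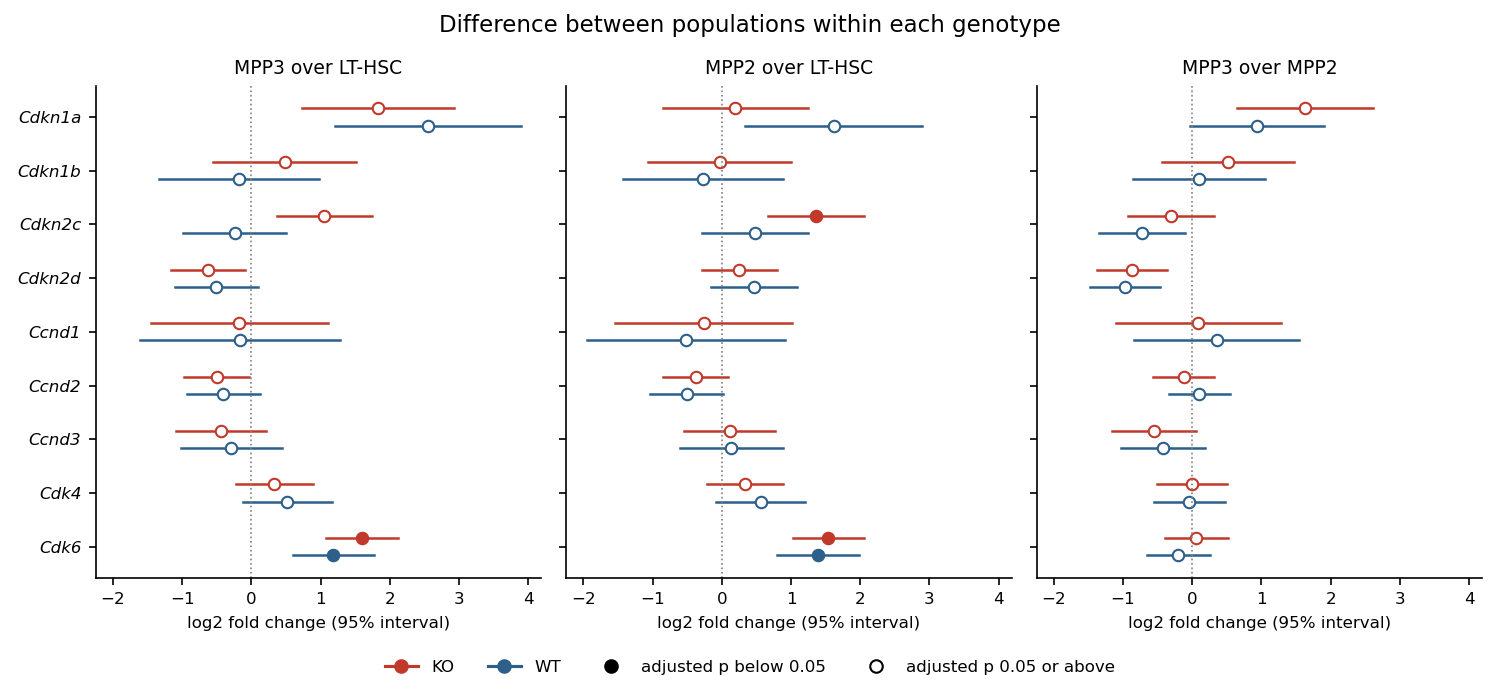
Log2 fold change between populations with 95% intervals for the 9 genes, KO above WT within each gene. Filled points mark an adjusted p below 0.05: Cdk6 in MPP3 and MPP2 over LT-HSC in both genotypes, and Cdkn2c in KO MPP2 over KO LT-HSC.

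The make-up of each class is given as a description, without a test. Per exon length, Cdk6 made up 22.9 ± 12.25% of the summed Cdk4 and Cdk6 level in KO MPP3 and 19.85 ± 1.43% in KO MPP2, against 9.81 ± 4.33% in KO LT-HSC. In WT mice the share was 19.6 ± 2.79% in MPP3 and 21.2 ± 3.15% in MPP2, against 13.3 ± 1.77% in LT-HSC. The lowest MPP share was 15.0% and the highest LT-HSC share 14.5%, so the populations met closely without overlapping, and KO MPP3 2 stood far above the others at 40.8%. Ccnd2 was the main D cyclin in every library, with group means of 69.2 to 76.9%, against 19.9 to 28.35% for Ccnd3 and 2.43 to 4.46% for Ccnd1. Cdkn2d made up 59.2% of the 4 inhibitors in KO MPP3 and 65.2% in WT MPP3, against 82.4% in KO LT-HSC and 75.75% in WT LT-HSC. Cdkn1a took 11.55% in KO MPP3 and 10.8% in WT MPP3, against 3.0% in KO LT-HSC and 1.55% in WT LT-HSC.

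**Figure D4:**
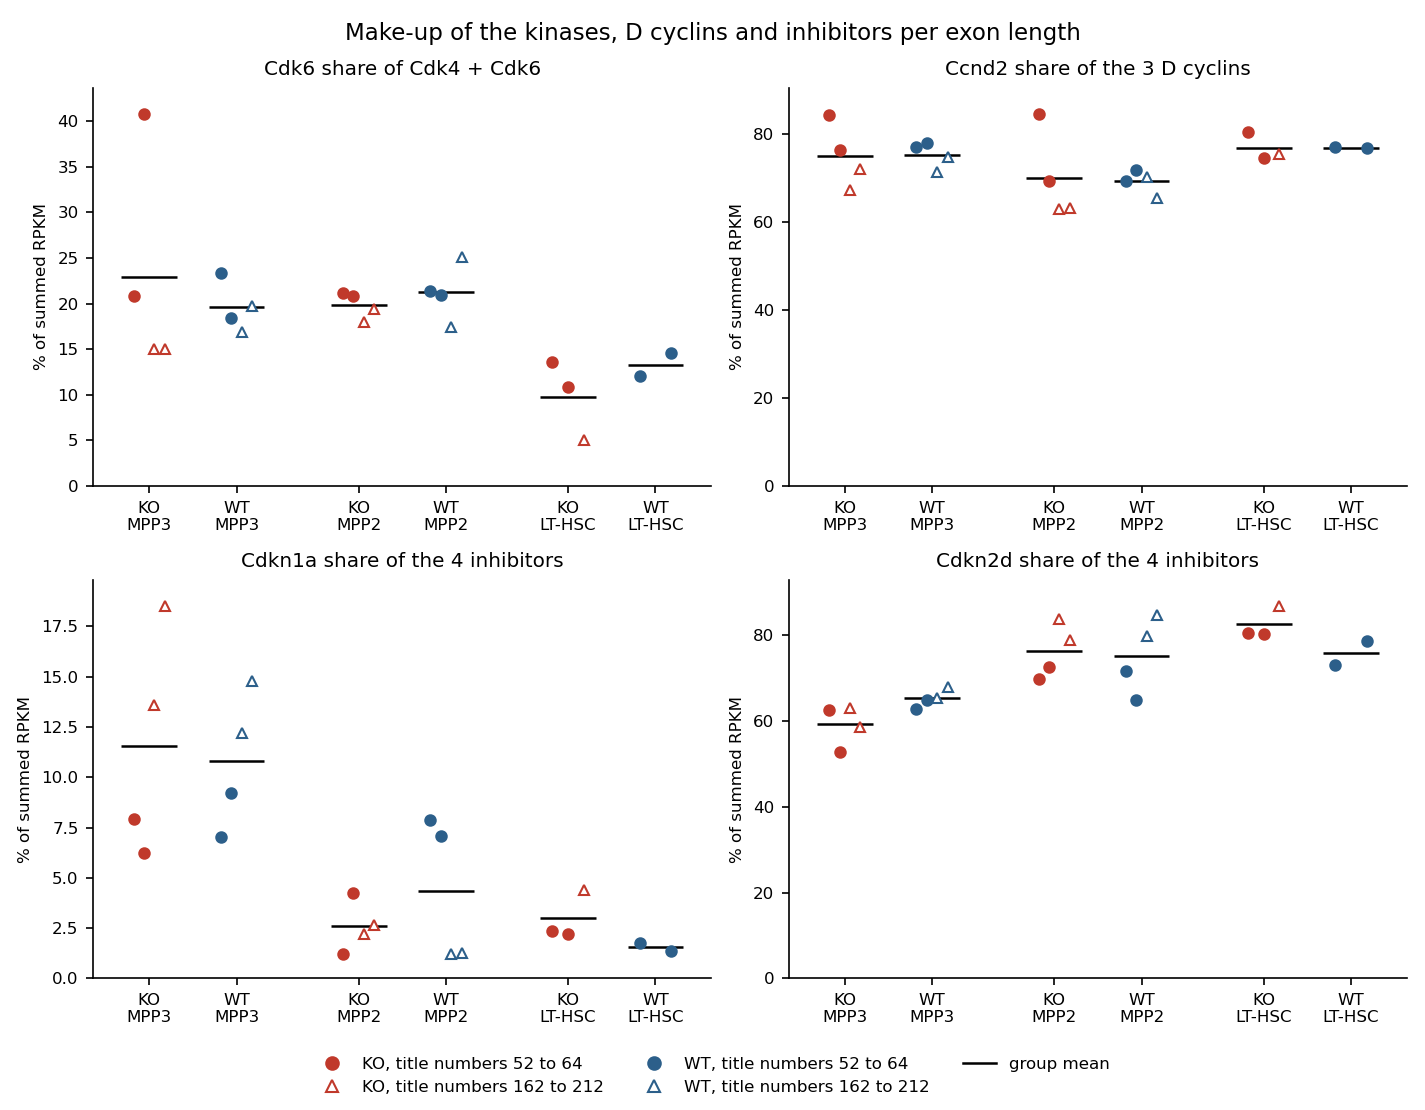
Share of Cdk6 in the summed RPKM of Cdk4 and Cdk6, of Ccnd2 in that of the 3 D cyclins, and of Cdkn1a and Cdkn2d in that of the 4 inhibitors, in percent, per library with group means as bars. The Cdk6 share is 15.0% or more in all MPP libraries and 14.5% or less in all LT-HSC libraries.

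Several members also differed between libraries with title numbers 162 to 212 and those with 52 to 64, a comparison added after the values were seen. Ccnd3 was higher in the upper range in MPP3 (log2 0.75, SE 0.15, adjusted p = 0.0475) and MPP2 (log2 0.70, SE 0.15, adjusted p = 0.0144), with every library of the upper range above every one of the lower within each population. Cdkn2d was higher in the upper range in MPP2 (log2 0.70, adjusted p = 0.0152), and Cdkn1b was lower there (log2 -0.91, adjusted p = 0.0462). So 3 of 9 members were called in MPP2, where 6.31% of all genes were, and 1 of 9 in MPP3, where 0.545% were. The 3 libraries with much immunoglobulin or ribosomal RNA are all KO and all in the lower range. In the WT libraries, fitted without these, Cdkn2d (log2 1.08, adjusted p = 0.0129) and Cdkn1a (log2 -1.81, adjusted p = 0.00431) were called in MPP2, 2 of 9 members against 3.36% of all genes, and 0 of 9 in MPP3 against 0.142%. Ccnd3 had log2 differences of 0.53 in WT MPP2 and 0.50 in WT MPP3 there (adjusted p = 0.0637 and 0.3655). Cdkn1a had fitted differences of opposite sign in the populations, at 0.99 in MPP3 and -0.93 in MPP2 when averaged over both genotypes. The fall in MPP2 came from WT libraries, with 22.05 and 16.28 CPM in the lower and 5.222 and 5.915 CPM in the upper range. KO MPP2 libraries overlapped, with 3.615 and 12.5 CPM in the lower and 7.345 and 8.093 CPM in the upper range. The difference between the averaged values of MPP3 and MPP2 was 1.92 (SE 0.44, adjusted p = 0.0729), and 0 of 9 members were called in it, against 0.573% of all genes. Cdkn1a was higher in MPP3 than in MPP2 within the upper range in both genotypes (log2 2.09 in KO and 2.47 in WT, adjusted p = 0.0230 and 0.00762), while within the lower range the values were 0.97 in KO and -0.24 in WT (adjusted p = 0.311 and 1).

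Sex moved with the title numbers too. The 6 libraries numbered 2, all in the lower range, had 2071 to 5051 counts of the Y-linked Ddx3y and 1 to 131 of Xist, whereas all other libraries, and so all of the upper range, had at most 3 counts of Ddx3y and at least 1743 of Xist. Some marker lists moved with the title numbers in MPP2, and others did not. The summed level of 5 megakaryocyte-erythroid genes (Gata1, Pf4, Itga2b, Klf1, Vwf) was 0.221% and 0.238% of counts in KO MPP2 libraries of the upper range, against 0.01205% and 0.0517% in those of the lower range. In WT MPP2 it was 0.147% and 0.185%, against 0.0264% and 0.0187%. B and plasma cell genes went the other way, with at most 0.00989% in the 4 upper libraries, against 0.689% to 17.0% in the 4 lower ones. So did the summed level of 5 gate genes, at 0.0479% to 0.0730% in the 4 upper and 0.118% to 0.153% in the 4 lower libraries. Other lists overlapped between the ranges. Granulocyte-monocyte and lymphoid genes had 0.00296% to 0.2128% in the upper and 0.1561% to 0.4029% in the lower libraries. T and NK cell genes had 0.0526% to 0.1111% in the upper and 0.02886% to 0.06541% in the lower libraries. The part of sex and of these markers in the differences of Cdkn1a, Cdkn2d, Cdkn1b and Ccnd3 was not tested.

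Other genes of the pathway were followed in a list of 49, of which 47 could be tested. Between KO and WT, 0 were called in any population, and the median log2 difference of the list was 0.08 in MPP3, 0.17 in MPP2 and 0.23 in LT-HSC, against 0.0046, 0.0121 and 0.0035 over all genes. Between populations the gene called in most comparisons was Cdkn1c, the third CIP/KIP inhibitor and a known brake on stem cell division. It averaged 3.14 ± 1.57 CPM in KO MPP3 and 1.865 ± 0.787 CPM in KO MPP2 (SD, n = 4 each), against 23.7 ± 12.1 CPM in KO LT-HSC (n = 3). In WT mice it averaged 2.38 ± 2.05 CPM in MPP3 and 3.92 ± 1.11 CPM in MPP2 (n = 4 each), against 30.2 ± 10.65 CPM in LT-HSC (n = 2). Cdkn1c fell in all 4 comparisons, with log2 differences of -2.92 and -3.66 in KO MPP3 and KO MPP2 (adjusted p = 0.0124 and 0.00481) and -3.66 and -2.94 in WT MPP3 and WT MPP2 (adjusted p = 0.00767 and 0.0446). The INK4 genes Cdkn2a and Cdkn2b had at most 8 and 18 counts in any group, too few to test.

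In KO MPP2 over KO LT-HSC 5 of 47 genes of the list rose and 2 fell, where 1.81% of all genes were called: E2f8, an E2F repressor (log2 2.47, adjusted p = 0.00537), Top2a and Mki67, which mark dividing cells (log2 1.63 and 1.42, adjusted p = 0.0220 and 0.0333), cyclin A2 gene Ccna2 (log2 1.54, adjusted p = 0.0424) and Cks1b, a cofactor of the ligase that degrades Cdkn1b protein (log2 1.17, adjusted p = 0.0486), against Cdkn1c and Mycn (log2 -2.12, adjusted p = 0.0234). In WT MPP2 over WT LT-HSC 1 rose, Cks1b (log2 1.56, adjusted p = 0.0446), and 1 fell, Cdkn1c, where 0.63% of all genes were called. In KO MPP3 over KO LT-HSC 0 rose and 2 fell, Cdkn1c and Mycn (log2 -2.20, adjusted p = 0.0135), where 2.64% of all genes were called, and in WT MPP3 over WT LT-HSC 0 rose and 1 fell (1.1% called). Between WT MPP3 and WT MPP2, Cdk1 and Mki67 were lower in MPP3 (log2 -1.41 and -1.26, adjusted p = 0.0366 and 0.0448), 2 of 47 against 1.2% of all genes, and between KO MPP3 and KO MPP2 0 of 47 were called, against 0.886%. Of 13 readouts of S and M phase, 2 were called in KO MPP2 over LT-HSC and 0 in WT MPP2 over LT-HSC. All 13 had fitted values above 0 in MPP2 over LT-HSC, with medians of 1.28 in KO and 1.32 in WT mice, against 0.0419 and 0.0 over all genes. In MPP3 over LT-HSC their medians were 0.47 in KO and 0.48 in WT mice, against 0.0286 and 0.0272 over all genes.

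Over the 21 libraries, the genes most like each member in log2(CPM + 1), among 9026 genes with a mean of at least 10 CPM, were as follows. For Cdk6 they were Cst7 (Pearson r = 0.925), Mgat5 (0.912) and Runx3 (0.907), and for Cdk4 Akr1a1 (0.953), Umps (0.945) and Exosc5 (0.921). For Cdkn2c they were E2f8 (0.820), Spag5 (0.807) and Pif1 (0.798), for Cdkn2d Cd59a (0.944), Smim5 (0.917) and Vamp5 (0.912), and for Cdkn1a H2afy (0.888), Tm6sf1 (0.887) and Ldlrad4 (0.880). For Ccnd3 they were Ldha (0.936), Rpl7l1 (0.926) and Mlf2 (0.918), and for Cdkn1b Dennd1b (0.909), Qk (0.899) and Chm (0.897). Ccnd2 was most like Lmbrd1 (0.828), Yipf2 (0.823) and Tex264 (0.7985), and Ccnd1 most like Ipo4 (0.786), Hdac4 (0.7725) and Polr3d (0.761). Likenesses of this kind include what libraries share in population, title number and depth.

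Among the 36 pairs of members, the strongest relation was between Ccnd3 and Cdkn1b, at r = -0.80 over the 21 libraries and -0.84 after removing group means. Ccnd3 and Cdk4 gave 0.55 and 0.79 in the same measures, and Cdkn1b and Cdk4 -0.60 and -0.73. Pairs that followed the populations lost much of their relation once group means were removed: Ccnd2 and Cdk6 gave -0.72 and then -0.44, and Cdkn2c and Cdk6 0.68 and then 0.38. These values are descriptions over libraries that share mice and title numbers.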

How the data were processed

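RNA-seq libraries from 100 to 200 sorted cells each were used as raw read counts per gene, which the authors deposited unnormalized. Per the submitters' processing notes, STAR and the mm10 build were used. How reads were counted, with which annotation and strand setting, is not given in the sources used here. Of 54446 gene IDs, 54409 matched GENCODE M21, which gave positions and exon lengths.

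Genes were tested with edgeR 4.0.16 (R 4.3.3; TMM, robust quasi-likelihood, filterByExpr with a minimum count of 10), in one fit of all 21 libraries by group. Benjamini-Hochberg adjustment ran over 21100 genes at a threshold of 0.05, and intervals are 95% intervals. The fit was tested on simulated data. CPM and RPKM used TMM-adjusted library sizes, and RPKM also exon-union length. Library depth was 18892723 to 31611366 counts, and no libraries held identical values. P-values rest on the spread between these libraries. The main fit treated all libraries as independent, although populations numbered alike within a genotype were taken to share a mouse. The block by mouse took this sharing into account for comparisons of populations.

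In MPP2, deviations of KO and WT libraries numbered alike correlated at 0.249, 0.237, 0.207 and 0.282. Unlike numbers within a title range correlated too, at 0.102 to 0.256, and pairs across the ranges ran from -0.278 to -0.125. These values follow the title range and cannot show a pairing by replicate number. For libraries numbered alike, the lowest value in MPP3 was 0.0807 and the highest in LT-HSC was 0.0417. Populations numbered alike within a genotype were taken to share a mouse, from their consecutive titles and the stated design. KO LT-HSC 3 is in doubt, since its title, 212, follows those of KO MPP3 4 (210) and KO MPP2 4 (211), with which its deviations correlated at 0.1196 and 0.1475, against 0.0121 and 0.0515 with the libraries numbered 3. The replicate block was run with it as number 3 and as number 4, and the block by mouse with it as number 3.

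DESeq2 1.42.0, other scalings, filters, blocks and left-out libraries were the alternatives. The 9 genes and the gene lists were chosen with earlier results of these data known. All 9 are named. From the cell cycle list, up to 6 called genes of smallest p per comparison are named (Cks1b in KO MPP2 was added after its value was seen), and for likeness the 3 highest correlations per gene.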

Additional observations from a re-analysis of the deposited data

Results flagged for a closer look

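In 5 of the 36 gene and group combinations with 4 libraries, 1 library lay far from the other 3. Chance alone does so in about 1 in 20. Ccnd1 had 25.95 CPM in KO MPP3 2, against 6.602 to 9.745 CPM in the other KO MPP3 libraries. Ccnd1 had 7.467 CPM in WT MPP3 3, against 10.39 to 10.6 CPM in the other WT MPP3 libraries. Ccnd1 had 1.048 CPM in WT MPP2 1, against 9.326 to 10.69 CPM in the other WT MPP2 libraries. Cdk4 had 481.0 CPM in KO MPP2 1, against 788.0 to 805.5 CPM in the other KO MPP2 libraries. Cdk6 had 993.1 CPM in KO MPP3 2, against 698.5 to 733.7 CPM in the other KO MPP3 libraries. KO MPP2 1 and KO MPP3 2 are the libraries with 45.8% immunoglobulin and 10.3% ribosomal RNA counts. KO MPP3 2 also had 0.0653% of counts in LT-HSC marker genes, the highest of its group. The part of these in the values was not tested.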

How the results depend on the processing

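Of the 9 genes, 0 were called between KO and WT, or between KO effects, under any alternative run. The other numbers of the 9 called follow, with single omissions as a range. WT MPP2 over LT-HSC (1 in edgeR) had 0 with only the groups compared, 0 with the replicate block by mouse and 0 to 1 with single omissions. WT MPP3 over LT-HSC (1) had 2 with DESeq2, 2 with only the groups compared, 2 without the 3 libraries rich in immunoglobulin or ribosomal RNA, 0 with no filter, 0 with the replicate block by mouse and 0 to 2 with single omissions. KO MPP2 over LT-HSC (2) had 1 with no filter, 0 with only the groups compared and 1 to 2 with single omissions. KO MPP3 over LT-HSC (1) had 3 with DESeq2, 3 without the 3 libraries, 2 with the replicate block, 2 with the block by mouse, 2 with the title number term and 1 to 2 with single omissions. WT MPP3 over MPP2 (0) had 1 with DESeq2, the replicate block (also with KO LT-HSC 3 as number 4), the title number term and without the 3 libraries, and 0 to 1 with single omissions. KO MPP3 over MPP2 (0) had 2 with DESeq2, 1 with the title number term and 0 to 1 with single omissions. The cause of these shifts was not tested. The replicate block changed no other call among the 9.

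Over all genes, DESeq2 called 38, 35 and 28 between KO and WT in MPP3, MPP2 and LT-HSC, against 2, 3 and 1 in edgeR, and the replicate block called 11 in MPP2 and 5 in MPP3. In the order MPP2 over LT-HSC, MPP3 over LT-HSC and MPP3 over MPP2, edgeR called 133, 232 and 253 in WT and 381, 558 and 187 in KO mice. DESeq2 called 849, 635 and 913 in WT and 1245, 1377 and 858 in KO mice, the replicate block 192, 344 and 569 in WT and 585, 855 and 502 in KO mice, and no filter 54, 176 and 158 in WT and 285, 438 and 159 in KO mice. Fits of only the groups compared called 46, 791 and 157 in WT and 116, 445 and 6 in KO mice, and fits without the 3 libraries 527, 365 and 658 in WT and 933, 635 and 58 in KO mice. The block by mouse called 43, 168 and 270 in WT and 424, 638 and 273 in KO mice, and the title number term 167, 340 and 577 in WT and 595, 887 and 535 in KO mice. Between KO effects DESeq2 called 24 for MPP2 less LT-HSC, 26 for MPP3 less LT-HSC and 15 for MPP3 less MPP2, against 0 in edgeR. Ccnd1, with as few as 26 counts in a library, is the member most limited by depth.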
